A study of Mus musculus with 14 samples.

Results

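The 52 genes described here encode the Wnt ligands, their receptors, the secreted proteins that block or strengthen them, and 3 intracellular proteins whose genes are used as readouts of the pathway. They were chosen by symbol and not by measured value, out of 55427 genes in the series. The set holds 19 Wnt ligands, 10 Frizzled (Fzd) receptors, the 2 co-receptors Lrp5 and Lrp6, 4 R-spondins, 3 Lgr receptors, 11 secreted antagonists (Dkk, Sfrp, Frzb, Wif1 and Notum), and Axin2, Lef1 and Tcf7.

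Wnt proteins are secreted lipid-modified ligands. In the canonical pathway a ligand bridges a Frizzled receptor and Lrp5 or Lrp6, β-catenin is no longer degraded, and it enters the nucleus where it works with transcription factors of the TCF/LEF family. Other ligands, of which Wnt5a is the best known, signal mainly without β-catenin. In bone the canonical pathway favours osteoblasts over chondrocytes, and loss of LRP5 function lowers bone mass.

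RNA-seq was performed on 14 single cell-derived clones of tdTomato+ skeletal cells from mouse femur bone marrow. Of these, 5 clones were Fgfr3-WT (genotype Fgfr3-creER; R26R(tdTomato/+), isolated at postnatal day 23, P23), 5 were Fgfr3-p53 cKO isolated at P28 and 4 were Fgfr3-p53 cKO isolated at 4 months (P4M). Both cKO groups carried Fgfr3-creER; Trp53fl/fl; R26R(tdTomato/+), and all mice, WT included, received tamoxifen at P21. The creER transgene recombines Trp53 in Fgfr3-expressing cells and marks the same cells with tdTomato. WT and P28 clones were at passage 8, and P4M clones at passages 6 to 8, so that only clones that could be carried this far were measured. Each library is 1 clone. The labels do not say which clones came from separate mice, so that p values measure the spread between clones only.

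Total counts per clone ranged from 25688946 to 52857424. Trp53 averaged 55.0 CPM (the usual per-depth unit, counts scaled to the size of the library) in WT (49.9 to 68.2), 2.47 in P28 (2.18 to 2.84) and 2.09 in P4M (1.72 to 2.37), with no overlap between WT and either cKO group. Pairwise correlations between clones of 1 group were lower in WT (r of 0.878 to 0.944) than in P28 (0.931 to 0.980) or P4M (0.951 to 0.980), given as a description over genes. All 5 WT libraries belong to library submission 1303 and all 9 cKO libraries to submission 2963, so that genotype and submission cannot be told apart, whereas P4M against P28 lies within 1 submission. Of 6 skeletal mesenchymal markers, Prrx1, Prrx2, Pdgfra, Pdgfrb and Twist1 were present in every clone (summed level of all 6 of 383 to 824 CPM in WT, 462 to 1597 in P28 and 594 to 1087 in P4M), and Thy1 had no count in P28 clone 5 and P4M clones 1, 2 and 4. Of 6 endothelial markers, Cdh5 had no count in any clone, but the sum was 1.07 to 3.78 CPM in WT, 0.743 to 5.69 in P28 and 7.29 to 249.7 in P4M, with 237 CPM of Vwf in P4M clone 3. Kdr was called higher in both cKO groups against WT and Vwf in P4M. Of 6 haematopoietic markers, Hbb-bs had no count, and the sum was 16.4 to 145 CPM in WT, 3.30 to 22.3 in P28 and 5.03 to 9.08 in P4M. Cd68 and Lyz2 were called lower in both cKO groups and were highest in WT clone 4 (54.3 and 90.6 CPM), whereas Csf1r was called higher in P28. S100b, a marker of Schwann cells and also of cartilage, was 47.9 to 614 CPM in WT, 0.837 to 4.13 in P28 and 4.23 to 59.8 in P4M, and it was called lower in both cKO groups. Sox10 was at most 0.0976 CPM, and the muscle markers Myod1, Pax7 and Myf5 had no count. The summed level of 6 osteoblast markers (Runx2, Sp7, Col1a1, Alpl, Ibsp, Bglap) was 45.2 to 1337 CPM in WT, 14900.4 to 22149 in P28 and 8934 to 54336 in P4M, with 3 of 6 called higher in P28 and 5 of 6 in P4M. Most of this sum was Col1a1 in every cKO clone, and the other markers divided the P28 clones. Sp7 was 3.38 to 9.78 CPM in P28 clones 1 to 3 and 289.5 to 293 in clones 4 and 5, Ibsp was 0.550 to 1.53 against 147 and 445, and Bglap was 0.167 to 0.495 against 93.8 and 102. WT clone 5 stood apart from its group with 38.7 CPM of Sp7 and 92.9 of Ibsp. The 6 chondrocyte markers (Sox9, Col2a1, Acan, Col9a1, Comp, Matn3) summed to 746 to 22895 CPM in WT, 181 to 1498 in P28 and 25.1 to 55.4 in P4M. Of these, 4 were called lower in P28 and 5 in P4M, while Matn3 was called higher in P28 and Comp was not called there. Of 6 reticular and adipocyte markers, 4 were tested. Lepr was called higher in both cKO groups against WT, and Cxcl12, Cebpa and Pparg were not called. The part of these marker differences in the Wnt gene results was not tested, and in bulk libraries fewer cells expressing a gene and less RNA per cell cannot be told apart.

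Of the 52 genes, 39 had enough counts to be tested among 17358 genes (edgeR quasi-likelihood test, Benjamini-Hochberg adjustment over all genes, FDR of 0.05). In P28 against WT, 20 genes were called higher and 3 lower, which is 59% of those tested, where 38.9% of all genes were called (19.2% higher and 19.7% lower). In P4M against WT, 17 were called higher and 4 lower (53.8%, against 45.9% of all genes, 22.3% higher and 23.6% lower). In P4M against P28, 6 were called higher and 3 lower (23.1%, against 7.22% of all genes, 3.34% higher and 3.88% lower). The genes called against WT thus lay mostly on the higher side in both cKO groups, whereas all genes were divided about evenly. Several of them, among them Wnt7b, Wnt11 and Notum, were near 0 in WT and so had room to be called higher only. With a filter of 10 counts in every clone, 8 genes were called higher and 3 lower in P28, and 5 and 5 in P4M. With this filter, which leaves out genes low in any clone, the tilt to the higher side remained in P28 and was absent in P4M. The part of low WT levels in the tilt was not tested. The median log2 fold change of the tested genes was 1.5 in P28 and 2.10 in P4M against WT, where the median of all genes was -0.02 and -0.06. The 2 comparisons share the WT clones. In P28 against WT, 11 genes had every cKO clone above every WT clone (13% of all genes did) and none had every one below (11.5% of all genes). In P4M against WT these numbers were 14 (17.8% of all genes) and 3 (15.7%), and in P4M against P28 they were 8 (9.07%) and 5 (9.96%).

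**Figure D1:**
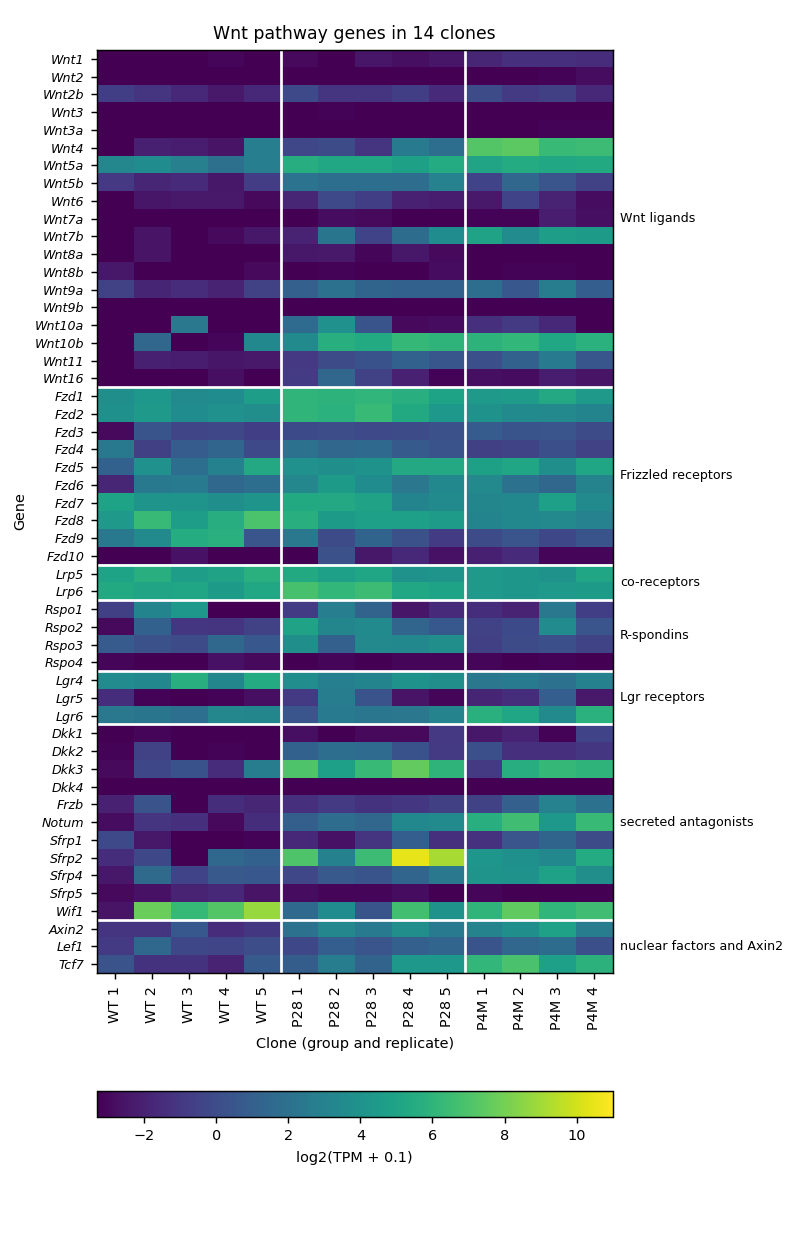
The level of the 52 genes in 14 clones, as log2(TPM + 0.1) on the colour scale, with genes in rows grouped by role and clones in columns grouped as WT, P28 and P4M. The Wnt ligand block is dark in WT apart from Wnt5a and a few single clones, and Wnt4 is bright in all 4 P4M clones.

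More of the 52 genes were detected in the cKO clones. At a TPM of 1 or more, 18 ± 2.74 of the 52 genes were detected in WT (SD, n = 5), 29.8 ± 2.39 in P28 (n = 5) and 28.5 ± 3.42 in P4M (n = 4). WT clones ranged from 14 to 21 genes and lay below every P28 clone (26 to 32) and every P4M clone (25 to 33). Among the ligands alone, 1 to 3 reached this level in WT clones, 5 to 7 in P28 and 6 to 7 in P4M. Total counts per clone were 25688946 to 38958693 in WT, 37606033 to 48648618 in P28 and 43757832 to 52857424 in P4M. The share of all genes at this TPM was not worked out for each clone. Whether the difference is particular to the 52 genes was thus not tested, nor was the part of depth in it.

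The 13 untested genes were 9 ligands (Wnt2, Wnt3, Wnt3a, Wnt6, Wnt7a, Wnt8a, Wnt8b, Wnt9b and Wnt16), Rspo4, Dkk1, Dkk4 and Sfrp5. Wnt9b and Dkk4 had no count in any clone. In the others the total over all clones was at most 133 counts (Wnt6), followed by 116 for Wnt16 and 99 for Dkk1. A count of 0 allows up to 3 counts in a library, or 0.0564 to 0.121 CPM.

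Of the 19 Wnt ligands 10 were tested, and 7 of these were called higher in P28 and 8 in P4M against WT, where 19.2% and 22.3% of all genes were called higher. None was called lower, but Wnt1, Wnt7b and Wnt11, with 0 to 5 counts in each WT clone, had room to be called higher only. Of the called ligands, Wnt5a and Wnt9a alone had at least 10 counts in every clone. With that filter both were still called higher in both cKO groups. Wnt1, Wnt5a, Wnt5b, Wnt7b, Wnt9a, Wnt10b and Wnt11 were called higher in both cKO groups, and Wnt4 in P4M alone. Wnt5a, a ligand that guides growth and polarity of skeletal elements, was at 30.3, 43.0, 27.1, 14.6 and 23.3 CPM in the WT clones (in order of replicate number), 133, 108, 95.8, 76.2 and 113 in P28, and 102, 141, 116 and 115 in P4M. Every cKO clone was above every WT clone, and the cKO groups overlapped. Its log2 fold change was 1.93 (SE 0.24, edgeR adjusted p = 0.000105) in P28 and 2.10 (SE 0.25, adjusted p = 6.0e-05) in P4M against WT, and 0.17 (SE 0.25, adjusted p = 0.707) between the cKO groups.

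Wnt10b, a canonical ligand known to promote bone formation, was at 0, 3.94, 0, 0.0285 and 16.5 CPM in WT, 15.2, 74.0, 56.4, 98.7 and 83.6 in P28, and 94.0, 113, 58.5 and 87.3 in P4M. WT clone 5 stood above P28 clone 1, and all P4M clones were above all WT clones. Its log2 fold change was 4.01 (SE 1.30, edgeR adjusted p = 0.0262) in P28 and 4.43 (SE 1.35, adjusted p = 0.0165) in P4M. Without WT clone 5 these values became 6.07 (adjusted p = 0.00334) and 6.50 (adjusted p = 0.00218), and without WT clone 2 the P28 call was lost (3.99, adjusted p = 0.0526), as it was with no filter (adjusted p = 0.0535) and when only WT and P28 were fitted (adjusted p = 0.0636). Wnt7b, which also acts in osteoblasts, was at 0, 0.153, 0, 0.0854 and 0.198 CPM in WT, 0.301, 8.46, 1.09, 5.0 and 19.1 in P28, and 55.7, 22.9, 49.0 and 41.7 in P4M. The 3 groups did not overlap. It was higher by 6.26 in P28 (SE 1.12, adjusted p = 0.000959, 5.37 without P28 clone 5) and by 8.90 in P4M (SE 1.22, adjusted p = 0.000141), on the log2 scale. The difference of 2.64 between P4M and P28 did not pass (SE 0.88, adjusted p = 0.0815).

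Wnt4, a ligand with canonical and non-canonical activity, set the P4M clones apart. It was at 0, 0.421, 0.324, 0.228 and 19.4 CPM in WT, 1.79, 2.25, 0.875, 13.4 and 8.50 in P28, and 402, 485, 222 and 244 in P4M. All P4M clones were above any other clone, and WT clone 5 was the highest of WT and P28. On the log2 scale the difference was 6.38 against WT (SE 1.53, edgeR adjusted p = 0.00457) and 5.98 against P28 (SE 1.5, adjusted p = 0.0311), while P28 and WT differed by 0.40 (SE 1.22, adjusted p = 0.82). Without WT clone 5, the value of P4M against WT was 10.46 (adjusted p = 5.48e-05). The call against P28 did not survive the omission of 1 clone in 6 of 14 cases, namely without P28 clones 1, 2 or 3 or P4M clones 1, 2 or 4, with a highest adjusted p of 0.0795 and a log2 fold change of 5.71 to 6.67 over all 14 fits, the highest without P28 clone 4. It was also lost with no filter (adjusted p = 0.0636).

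Among the ligands of lower level, Wnt9a was at 1.24, 0.421, 0.566, 0.427 and 1.39 CPM in WT, 3.94, 8.08, 4.43, 3.85 and 3.79 in P28, and 7.66, 3.07, 13.9 and 3.93 in P4M. Wnt5b was at 0.554, 0.268, 0.324, 0.142 and 0.673 CPM in WT, 5.74, 4.83, 4.37, 4.29 and 9.96 in P28, and 0.923, 3.87, 1.86 and 0.827 in P4M. Both had all cKO clones above all WT clones, and the Wnt5b values of P4M lay between those of WT and P28. For Wnt9a the log2 fold change was 2.57 (SE 0.50, edgeR adjusted p = 0.00149) in P28 and 3.14 (SE 0.52, adjusted p = 0.000431) in P4M. For Wnt5b it was 3.89 in P28 (SE 0.55, adjusted p = 0.000211) and 2.25 in P4M (SE 0.53, adjusted p = 0.00428, 1.62 without P4M clone 2), and the difference of -1.64 between P4M and P28 did not pass (SE 0.53, adjusted p = 0.0734). Wnt11, a mostly non-canonical ligand, was at 0, 0.0383, 0.121, 0.0285 and 0.0792 CPM in WT, 0.280, 0.622, 0.716, 0.967 and 0.717 in P28, and 0.946, 1.66, 4.44 and 0.770 in P4M. It was called higher without overlap, with 0 to 3 counts in each WT clone, in P28 (3.62, SE 0.71, adjusted p = 0.00167) and in P4M (5.18, SE 0.74, adjusted p = 0.000173, 4.39 without P4M clone 3).

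Wnt1, the canonical ligand mutated in a form of brittle bone disease, was rare. Its counts were 0, 0, 0, 1 and 0 in WT, 2, 0, 5, 3 and 4 in P28, and 12, 19, 23 and 20 in P4M. It was called in all 3 comparisons, but so few counts give no useful fold against WT. Wnt2b and Wnt10a were called in none. Wnt10a gave 1.68 in P28 (SE 1.88, edgeR adjusted p = 0.507) and -2.39 in P4M (SE 2.14, adjusted p = 0.382) against WT, and it was present mainly in WT clone 3 (8.58 CPM) and in P28 clones 1 to 3 (4.37, 21.3 and 1.65 CPM).

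**Figure D2:**
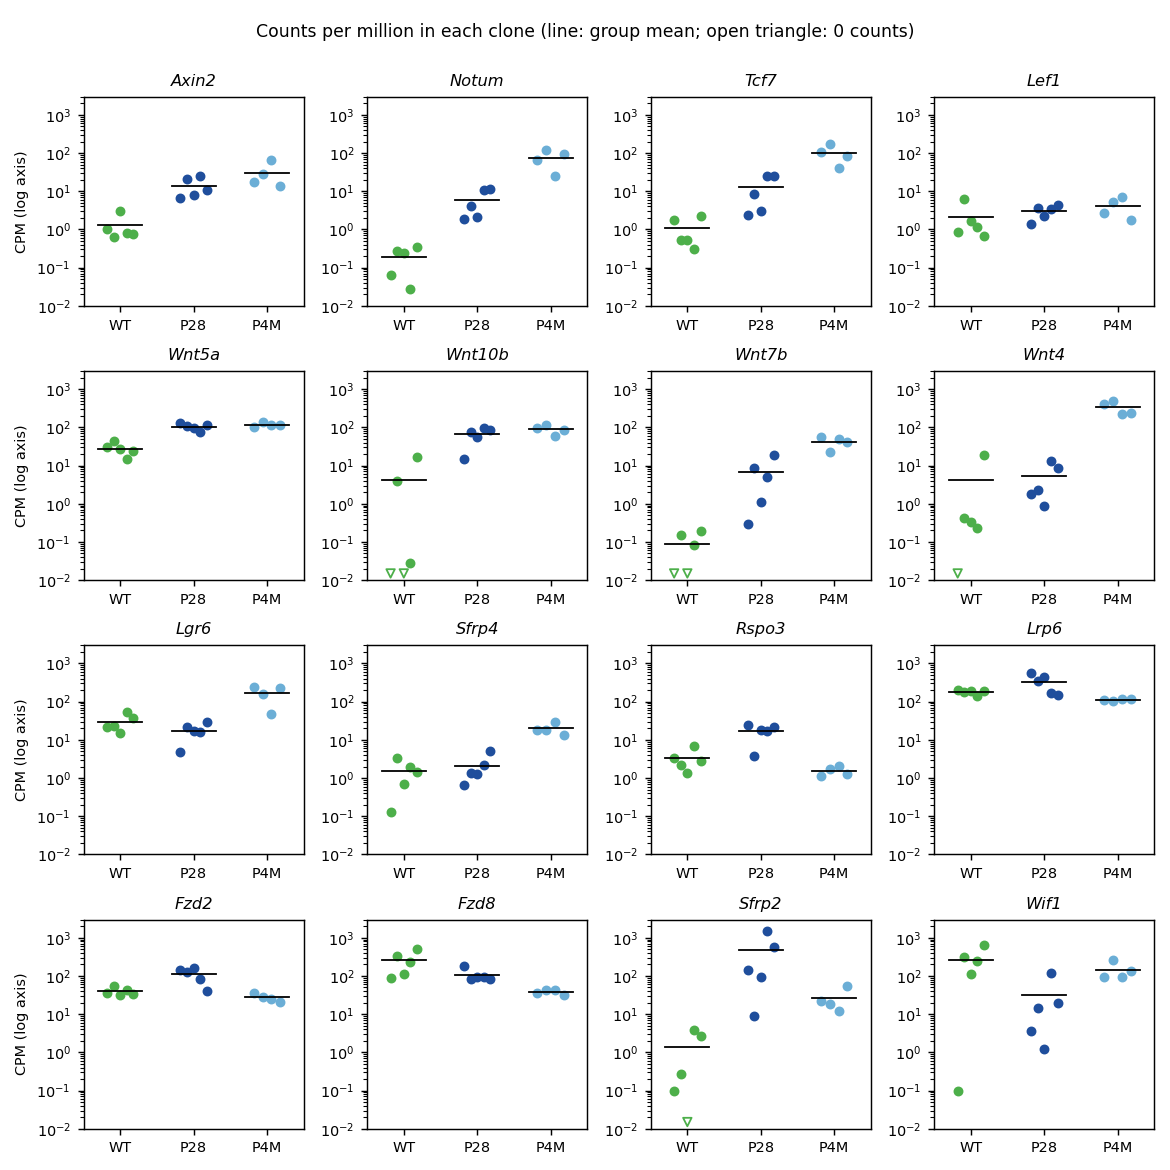
The CPM of selected genes in each clone on a log axis, for WT (n = 5), P28 (n = 5) and P4M (n = 4), where a line gives the group mean and an open triangle a clone with no count. Axin2, Notum, Tcf7 and Wnt7b lie higher in both cKO groups than in WT without overlap, Wnt4, Lgr6 and Sfrp4 are highest in P4M, and Rspo3, Lrp6 and Fzd2 are highest in P28.

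The ligand make-up also differed, as read from TPM, which can be compared between genes. Summed over the 19 ligands it was 4.48 to 25.6 TPM in WT, 71.3 to 135 in P28 and 196 to 306 in P4M, with no overlap between groups. Wnt5a led in WT clones 1 to 4, with 54.5% to 86.0% of the ligand total, and Wnt10b led in WT clone 5 (40.4%). In P28, Wnt5a led in clone 1 (66.9%) and Wnt10b in the other 4 clones (42.7% to 61.9%). Wnt4 led in all 4 P4M clones (40.4% to 55.4%).

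**Figure D3:**
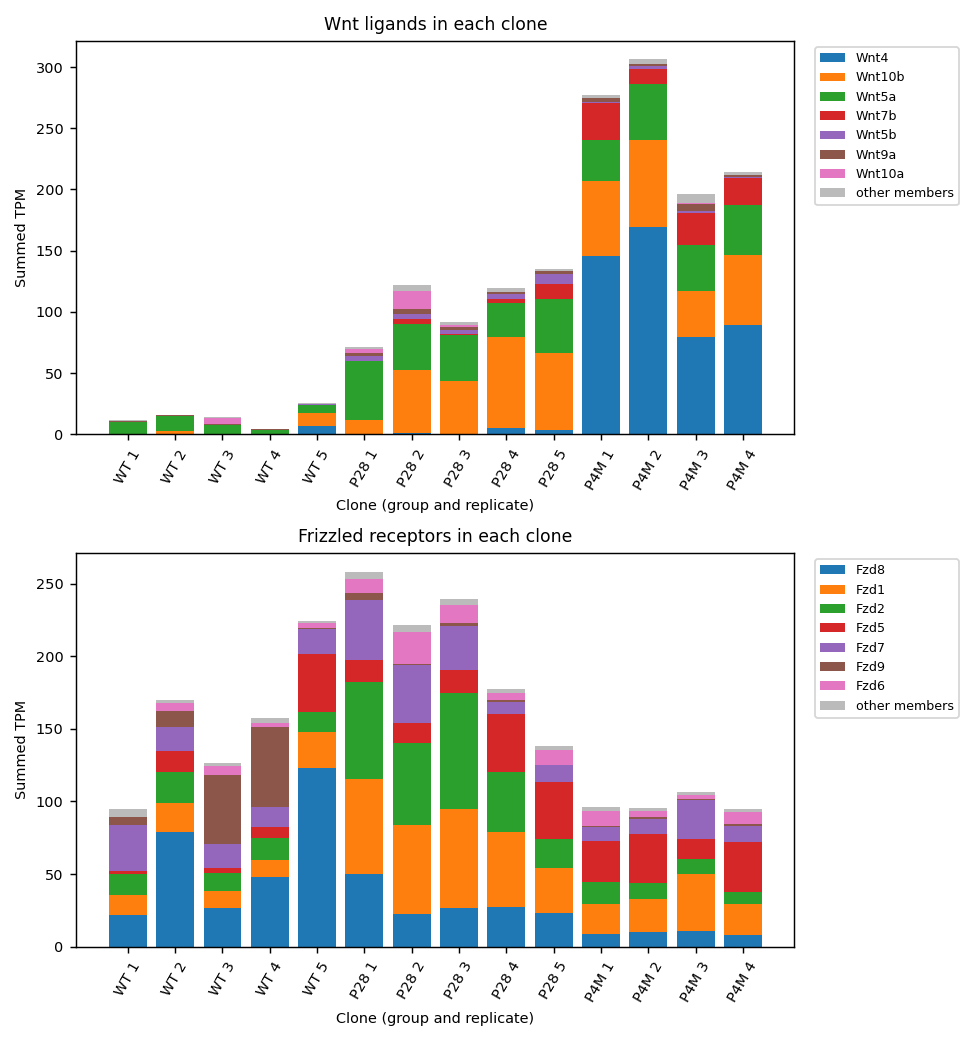
Stacked bars of the TPM of the Wnt ligands (top) and Frizzled receptors (bottom) in each of 14 clones, with the 7 genes of highest mean level in colour and the rest in grey. The ligand total rises from at most 25.6 TPM in WT to at least 196 TPM in P4M, where Wnt4 is the largest part, while the receptor total of P4M stays between 94.6 and 107 TPM.

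The Frizzled receptors were called in both directions. Their summed level was 94.85 to 225 TPM in WT, 138 to 258 in P28 and 94.6 to 107 in P4M. In P28 3 of 10 were called higher and 2 lower than WT (50% called, beside 38.9% of all genes), in P4M none was called higher and 3 lower (30%, beside 45.9%), and Fzd2 was the 1 receptor called lower in P4M than in P28. Fzd3, Fzd5, Fzd6 and Fzd7 were called in no comparison. The leading receptor was Fzd7, Fzd8 or Fzd9 in WT clones, Fzd1, Fzd2 or Fzd5 in P28, and Fzd5 in P4M except for Fzd1 in P4M clone 3.

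Fzd2 was at 35.1, 53.9, 31.0, 44.0 and 33.6 CPM in WT, 144, 125, 165, 85.7 and 40.7 in P28, and 36.8, 27.7, 25.3 and 20.4 in P4M. P28 clone 5 lay within the WT range, and all P4M clones were below all P28 clones. It was higher in P28 than in WT (1.5, SE 0.32, edgeR adjusted p = 0.00252) and lower in P4M than in P28 (log2 fold change -2.03, SE 0.35, adjusted p = 0.00831). P4M against WT gave -0.52 (SE 0.33, adjusted p = 0.215). Fzd1 was at 38.4, 59.0, 33.8, 41.3 and 71.9 CPM in WT, 161, 158, 163, 124 and 73.7 in P28, and 56.4, 64.9, 109.6 and 57.7 in P4M. All P28 clones were above all WT clones (1.48, SE 0.28, adjusted p = 0.00137), while P4M overlapped with both groups.

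Fzd8 and Fzd9 went the other way. Fzd8 was at 88.0, 338, 111, 234 and 509 CPM in WT, 181, 82.3, 93.2, 94.1 and 81.1 in P28, and 35.5, 42.3, 43.3 and 32.6 in P4M, and all P4M clones were below every other clone. It was lower in P28 (-1.27, SE 0.42, edgeR adjusted p = 0.0277) and in P4M (-2.74, SE 0.48, adjusted p = 0.00062) than in WT. The P28 call was lost without WT clones 2 or 5 or any of P28 clones 2 to 5, with values of -0.86 to -1.26 and a highest adjusted p of 0.0806, and when only these 2 groups were fitted (adjusted p = 0.0557). Fzd9, a receptor known to be needed for normal osteoblast function, was at 7.95, 16.6, 71.0, 96.7 and 1.86 CPM in WT, 6.60, 1.15, 2.94, 1.31 and 0.589 in P28, and 1.31, 1.91, 1.11 and 1.77 in P4M. WT clone 5 lay in the cKO range, and the other WT clones were above all cKO clones. As log2 fold change, it was -3.94 (SE 0.96, adjusted p = 0.00584) in P28 and -4.67 (SE 1.09, adjusted p = 0.00395) in P4M, and it became -3.27 and -4.0 without WT clone 4 and, in P28, -4.70 without P28 clone 1.

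Fzd4, also a receptor for the non-Wnt ligand norrin, was at 25.1, 2.64, 8.05, 13.8 and 3.76 CPM in WT, 16.1, 10.5, 11.1, 6.14 and 4.61 in P28, and 2.51, 3.21, 4.80 and 2.69 in P4M. P4M was lower than WT (-1.69, SE 0.60, edgeR adjusted p = 0.0333), but the groups overlapped and the call was lost without WT clones 1 or 4 or P4M clones 1, 2 or 4 (-1.09 and adjusted p = 0.0911 without WT clone 1), with no filter (adjusted p = 0.0526) and when only these 2 groups were fitted (adjusted p = 0.0593). Fzd10 was called higher in P28, where its counts were 0, 87, 8, 19 and 4 against 0, 0, 3, 0 and 0 in WT, so that most of them came from P28 clone 2.

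**Figure D4:**
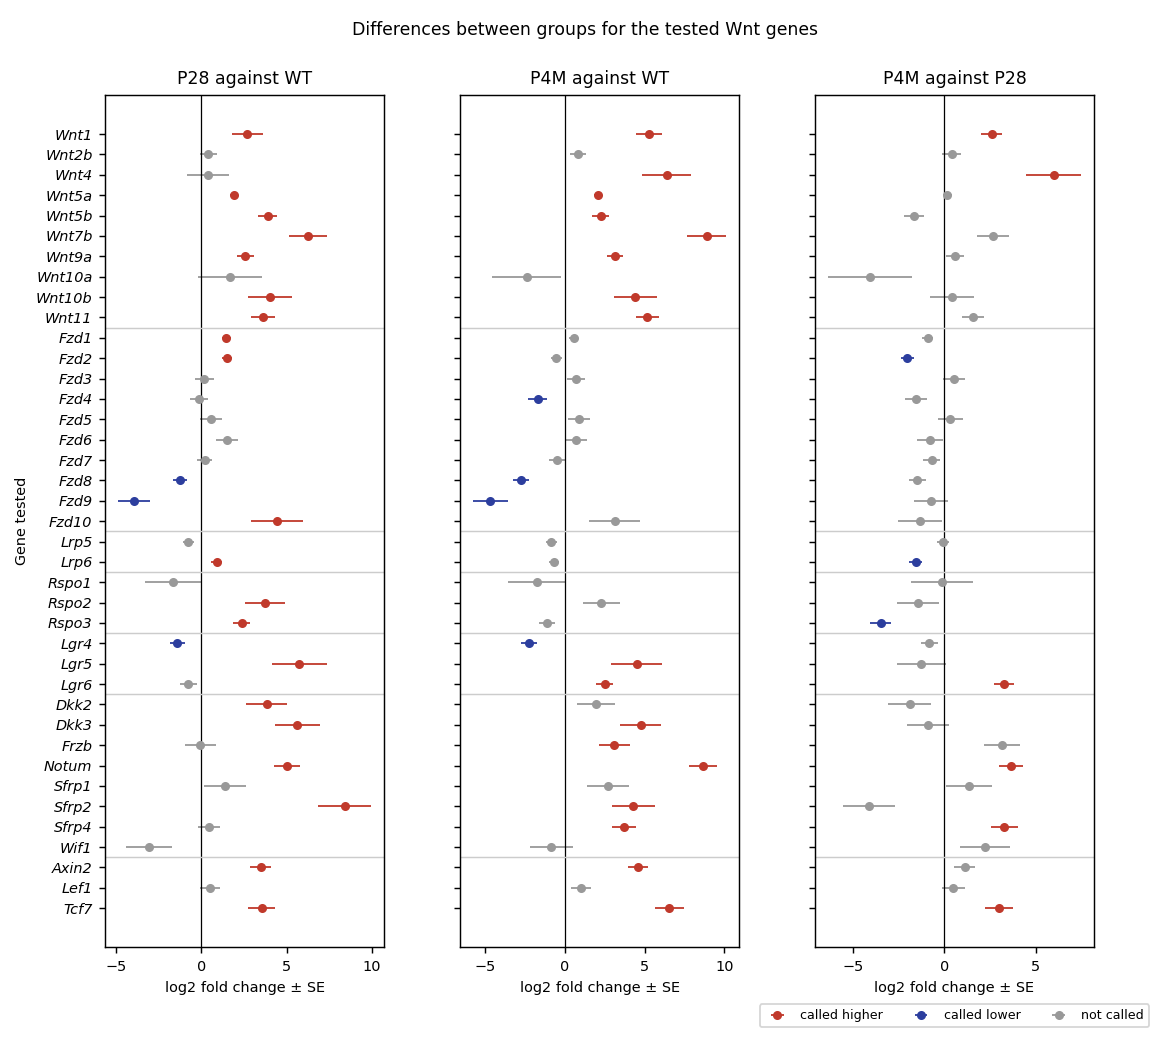
The log2 fold change with its SE for the 39 tested genes in 3 comparisons (P28 against WT, P4M against WT, P4M against P28), in red where called higher, in blue where called lower and in grey where not called. In the comparisons with WT most called genes lie to the right of 0 (20 of 23 and 17 of 21), while Fzd8, Fzd9 and Lgr4 lie to the left in both.

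The co-receptors Lrp5 and Lrp6 are closely related. Lrp6 was at 205, 177, 185, 137 and 195 CPM in WT, 567, 357, 439, 169.7 and 147 in P28, and 112, 107, 118 and 115 in P4M. P28 clones 1 to 3 were above all others, P28 clones 4 and 5 lay within the WT range, and every P4M clone was below every WT and P28 clone. In log2 units the change was 0.90 in P28 against WT (SE 0.31, edgeR adjusted p = 0.033), -1.57 in P4M against P28 (SE 0.34, adjusted p = 0.0174) and -0.67 in P4M against WT, which did not pass (SE 0.33, adjusted p = 0.112). The P28 call was lost without WT clones 2, 3 or 4 or P28 clones 1, 2 or 3 (0.61 and adjusted p = 0.104 without P28 clone 1), and the call between the cKO groups without P4M clones 1, 2 or 4 (highest adjusted p of 0.0534). Lrp5 was at 105, 176, 87.8, 117 and 174 CPM in WT, 116, 82.1, 96.5, 48.6 and 46.3 in P28, and 66.1, 63.1, 51.7 and 115 in P4M, with overlap between all groups. By edgeR it was called in no comparison, with -0.76 in P28 (SE 0.31, adjusted p = 0.0629) and -0.84 in P4M (SE 0.33, adjusted p = 0.0511) against WT, and -0.07 between the cKO groups (SE 0.32, adjusted p = 0.914). Against WT it passed without WT clones 1 or 3, P28 clone 1 or P4M clone 4 in P28 (-0.97 and adjusted p = 0.0289 without P28 clone 1), and without these or P28 clones 4 or 5 in P4M (-1.12 and adjusted p = 0.0192 without P4M clone 4). With DESeq2 Lrp5 passed in both (adjusted p = 0.0442 in P28 and 0.0339 in P4M), and in P4M it also passed when only these 2 groups were fitted (adjusted p = 0.0459) and with a filter of 10 counts in every clone (adjusted p = 0.0455). The fit of only the 2 groups compared moved Lrp6 as well, which passed in P4M against WT (-0.68, adjusted p = 0.00699) and was lost in P28 (0.88, adjusted p = 0.0740).

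R-spondins are secreted proteins that strengthen Wnt signals through Lgr4, Lgr5 and Lgr6. Rspo3 was at 3.29, 2.26, 1.38, 6.80 and 2.81 CPM in WT, 24.6, 3.73, 18.1, 16.9 and 22.4 in P28, and 1.11, 1.78, 2.05 and 1.24 in P4M. It was high in 4 of 5 P28 clones, low in P28 clone 2, and in P4M below every P28 clone. Its log2 fold change was 2.37 in P28 against WT (SE 0.50, edgeR adjusted p = 0.00241), -3.47 in P4M against P28 (SE 0.57, adjusted p = 0.00677) and -1.10 in P4M against WT (SE 0.52, adjusted p = 0.098). Rspo2 was at 0.0652, 4.51, 0.809, 0.825 and 1.27 CPM in WT, 55.5, 18, 19.1, 4.33 and 2.46 in P28, and 1.22, 1.73, 24.0 and 2.56 in P4M. It was higher in P28 than in WT with overlap (3.74, SE 1.17, adjusted p = 0.0224), and the call was lost without WT clone 4 (3.58, adjusted p = 0.0503) or P28 clone 1 (2.84, adjusted p = 0.067), while the value was 4.75 without WT clone 2. Rspo1 was called in no comparison, with 0 to 20.7 CPM in WT.

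The 3 Lgr receptors differed in direction. Lgr6 was at 21.7, 22.6, 15.3, 53.1 and 37.7 CPM in WT, 4.69, 21.4, 17.1, 15.9 and 28.7 in P28, and 245, 163, 47.2 and 228 in P4M. P4M clones were the highest except for P4M clone 3, which lay below WT clone 4. It was higher in P4M than in WT (2.5, SE 0.54, edgeR adjusted p = 0.00235) and than in P28 (3.28, SE 0.55, adjusted p = 0.00757), and P28 against WT gave -0.78 (SE 0.50, adjusted p = 0.234). Lgr4 was at 39.9, 36.5, 177, 38.9 and 149 CPM in WT, 38.3, 22.2, 23.6, 45.0 and 37.7 in P28, and 16.7, 20, 13.8 and 25.4 in P4M, and it was lower than WT in P28 (-1.40, SE 0.46, adjusted p = 0.0266) and in P4M (-2.22, SE 0.51, adjusted p = 0.00356). All P4M clones were below all WT clones, whereas the P28 call rested on WT clones 3 and 5, without which it was -0.99 (adjusted p = 0.0809) and -1.13 (adjusted p = 0.066), and was also lost without P28 clones 2 or 3 (highest adjusted p of 0.0593) and when only these 2 groups were fitted (adjusted p = 0.0516). Lgr5, a stem cell marker in several epithelia, was at 0.163, 0.0383, 0, 0.0285 and 0.158 CPM in WT, 1.18, 17.4, 2.98, 0.161 and 0.0512 in P28, and 0.323, 0.751, 5.91 and 0.301 in P4M. It was called higher in P28 (5.75, SE 1.61, adjusted p = 0.0126, 3.75 without P28 clone 2) and in P4M (4.5, SE 1.58, adjusted p = 0.0323), although P28 clones 4 and 5 lay within the WT range. The P4M call was lost without P4M clone 3 (2.52, adjusted p = 0.188) and without WT clones 2, 3 or 4 (highest adjusted p of 0.0668), and with no filter (adjusted p = 0.0524).

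Of the 8 secreted antagonists tested, 4 were called higher in P28 and 5 in P4M, and none was called lower. These are 50% and 62.5% of those tested, where 38.9% and 45.9% of all genes were called in either direction. None of the 8 had at least 10 counts in every clone, so that none could be tested with that filter. Notum, with 1 to 9 counts in each WT clone, had room to be called higher only. Notum, a secreted enzyme that removes the lipid of Wnt proteins and is itself a target of β-catenin, was at 0.0652, 0.268, 0.243, 0.0285 and 0.356 CPM in WT, 1.94, 4.14, 2.13, 10.6 and 11.6 in P28, and 64.9, 118, 24.5 and 95.0 in P4M. The 3 groups did not overlap. On the log2 scale the difference was 5.02 in P28 (SE 0.76, edgeR adjusted p = 0.00033) and 8.66 in P4M (SE 0.86, adjusted p = 1.85e-05) against WT, and 3.64 in P4M against P28 (SE 0.66, adjusted p = 0.0097). These 3 calls held whichever of the 14 clones was omitted.

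Sfrp2, a soluble Frizzled-related protein, was at 0.0977, 0.268, 0, 3.78 and 2.61 CPM in WT, 146, 8.75, 95.4, 1502 and 569 in P28, and 22.7, 18.4, 12.4 and 54.0 in P4M. All cKO clones were above all WT clones, and P28 clones ranged from below P4M clone 3 to far above the rest. It was higher than WT by 8.40 in P28 (SE 1.57, edgeR adjusted p = 0.00128, 7.22 without P28 clone 4 and 9.29 without WT clone 4) and by 4.29 in P4M (SE 1.34, adjusted p = 0.019), and P4M against P28 gave -4.11 (SE 1.40, adjusted p = 0.0879). The P4M call was lost without P4M clone 4 (3.71, adjusted p = 0.0501), and it was 5.19 without WT clone 4. Sfrp4, known for its role in cortical bone, was at 0.130, 3.41, 0.688, 1.91 and 1.42 CPM in WT, 0.645, 1.36, 1.25, 2.14 and 4.97 in P28, and 18.2, 18.5, 29.7 and 13.6 in P4M. P4M was above all other clones, with 3.73 against WT (SE 0.75, adjusted p = 0.0015) and 3.27 against P28 (SE 0.73, adjusted p = 0.0203), the latter lost without P28 clones 1 or 3 (highest adjusted p of 0.0594) and 3.91 without P28 clone 5. P28 against WT gave 0.45 (SE 0.67, adjusted p = 0.619).

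Dkk3, a divergent member of the Dickkopf family, was at 0.0652, 1.80, 2.51, 0.654 and 14.1 CPM in WT, 257, 54.4, 159, 355 and 121 in P28, and 0.969, 109, 165 and 137 in P4M. All cKO clones were above all WT clones except for P4M clone 1. As log2 fold change, it was 5.64 in P28 (SE 1.32, edgeR adjusted p = 0.00477) and 4.76 in P4M (SE 1.29, adjusted p = 0.00898), and 7.26 and 6.38 without WT clone 5. Dkk2 was at 0.0326, 1.49, 0, 0.0285 and 0 CPM in WT, 4.58, 7.89, 6.56, 2.34 and 0.922 in P28, and 2.45, 0.728, 0.731 and 0.940 in P4M, and was called higher in P28 alone (3.85, SE 1.20, adjusted p = 0.0218). WT clone 2 was the 1 WT clone inside the cKO range, and the call held without it (adjusted p = 0.000178), but the other 4 WT clones had 0 or 1 count each, too few to give a fold. Frzb, a cartilage-associated Frizzled-related protein, was at 0.130, 2.07, 0, 0.512 and 0.198 CPM in WT, 0.280, 0.789, 0.557, 0.584 and 0.589 in P28, and 0.854, 2.39, 12.1 and 4.83 in P4M. It was higher in P4M than in WT with overlap (3.12, SE 1.0, adjusted p = 0.0214), and this call was lost without P4M clone 3 (2.22, adjusted p = 0.0873) and when only these 2 groups were fitted (adjusted p = 0.0614), while the value was 4.53 without WT clone 2.

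Wif1, which binds Wnt proteins directly, was the leading antagonist by TPM in WT clones 2 to 5 and P4M clones 1, 2 and 4. Its mean was 264 ± 242 CPM in WT, 31.7 ± 49.6 in P28 and 147 ± 80.8 in P4M (SD, n = 5, 5 and 4), but WT clone 1 had 0.0977 CPM. It was called in no comparison (P28 against WT -3.06, SE 1.35, edgeR adjusted p = 0.0894), nor was Sfrp1. In P28 the leading antagonist was Sfrp2 in 4 clones and Dkk3 in P28 clone 2.

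Axin2, a scaffold protein of the complex that degrades β-catenin and a widely used readout of canonical signalling, was at 1.01, 0.650, 3.11, 0.825 and 0.752 CPM in WT, 6.84, 20.3, 8.17, 24.6 and 10.5 in P28, and 17.5, 27.5, 63.9 and 13.9 in P4M. Every cKO clone was above every WT clone, and the cKO groups overlapped. In log2 units the change was 3.48 in P28 (SE 0.60, edgeR adjusted p = 0.000755) and 4.60 in P4M (SE 0.64, adjusted p = 0.000152) against WT, and 1.12 between the cKO groups (SE 0.57, adjusted p = 0.23). Both calls held whichever of the 14 clones was omitted, with 4.11 and 5.23 without WT clone 3 and 3.96 in P4M without P4M clone 3.

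Tcf7 and Lef1 encode transcription factors that partner with β-catenin, and their patterns were not alike. Tcf7 was at 1.76, 0.536, 0.526, 0.313 and 2.30 CPM in WT, 2.41, 8.73, 2.96, 24.9 and 24.6 in P28, and 104, 176, 40.3 and 84.2 in P4M. The 3 groups did not overlap, although P28 clones 1 and 3 were close to WT clone 5. Its log2 fold change was 3.55 in P28 (SE 0.79, edgeR adjusted p = 0.00348), 6.54 in P4M (SE 0.90, adjusted p = 0.000145) and 2.99 in P4M against P28 (SE 0.76, adjusted p = 0.0337). The last call was lost without P28 clones 1, 2 or 3 or P4M clones 1, 2 or 4 (highest adjusted p of 0.0945) and with no filter (adjusted p = 0.0623). Lef1 was at 0.847, 6.12, 1.62, 1.14 and 0.673 CPM in WT, 1.40, 3.61, 2.31, 3.36 and 4.25 in P28, and 2.72, 5.26, 6.91 and 1.80 in P4M. The groups overlapped and no comparison passed, with 0.52 (SE 0.60, adjusted p = 0.516), 1.01 (SE 0.63, adjusted p = 0.206) and 0.48 (SE 0.62, adjusted p = 0.669) in the same order. WT clone 2 was the highest of its group, and without it Lef1 passed in P28 (1.48, adjusted p = 0.0266) and in P4M (1.96, adjusted p = 0.00713).

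Read across the 3 comparisons, 28 of the 39 tested genes were called at least once, 3 in all (Wnt1, Notum and Tcf7) and 11 in none. Against WT, 16 were called in both cKO groups, 13 higher in both and 3 lower in both (Fzd8, Fzd9 and Lgr4). Within the cKO clones, where genotype and submission are the same, Wnt1, Wnt4, Lgr6, Notum, Sfrp4 and Tcf7 were higher in P4M, and Fzd2, Lrp6 and Rspo3 were lower. Of the last 3, each had been called higher in P28 than in WT. Within P28, clones 4 and 5, which were high in Sp7, Ibsp and Bglap, lay apart from clones 1 to 3 in many genes, as did 50.5% of all genes tested (24.2% with clones 4 and 5 higher and 26.4% with them lower, without overlap). Of the 39 Wnt genes, 9 were higher in clones 4 and 5 without overlap, among them Wnt4, Wnt10b, Notum, Sfrp2 and Tcf7, and 13 were lower, among them Fzd1, Fzd2, Lrp5, Lrp6 and Rspo2, a share close to that of all genes. This division was seen in the values and not tested.

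The other genes of the pathway, 50 genes of which 45 were tested, lay nearer to the share of all genes called in either direction. In P28 against WT 17 were called higher and 2 lower (42.2%). Of all genes 38.9% were called, 19.2% higher and 19.7% lower. In P4M against WT 18 were called higher and 4 lower (48.9%). Of all genes 45.9% were called, 22.3% higher and 23.6% lower. Against WT most calls thus lay on the higher side here too. In P4M against P28 1 was called higher and 3 lower (8.89%, beside 7.22% of all genes). Rnf43, a membrane ubiquitin ligase that removes Frizzled receptors, was higher by 4.82 in P28 (SE 1.03, edgeR adjusted p = 0.00285) and by 5.15 in P4M (SE 1.06, adjusted p = 0.00181). Nkd1, an inhibitor of Dishevelled, was higher by 4.93 in P28 (SE 1.54, adjusted p = 0.0224) and by 5.20 in P4M (SE 1.59, adjusted p = 0.0167). Nkd1 was at 0 CPM in WT clones 1, 2 and 4 and at 1.74 in WT clone 3, above P28 clone 5 (0.231). Its relative Nkd2 was higher by 6.94 in P4M (SE 1.05, adjusted p = 0.000266) and by 4.46 in P4M against P28 (SE 0.92, adjusted p = 0.0152), and it was called higher in P28 too (2.49, SE 0.90, adjusted p = 0.0421). Rnf43 and Nkd2 were at most 0.554 CPM in WT, and P28 clone 5 (0.307 CPM of Nkd2) lay within the WT range. The folds of these 3 genes against WT thus rest on levels near 0 in most WT clones. Single clones were not left out for them. Lrp4, a receptor for the antagonist sclerostin, was higher by 2.65 in P28 (SE 0.59, adjusted p = 0.00346) and by 4.70 in P4M (SE 0.65, adjusted p = 0.000152) against WT. The genes called lower in P4M than in P28 included Prickle2 of the planar polarity pathway (-1.85, SE 0.36, adjusted p = 0.0123) and the TCF family member Tcf7l1 (-1.0, SE 0.28, adjusted p = 0.0494). By role, 4 of 7 other β-catenin target genes tested were called higher in each cKO group against WT, where 19.2% and 22.3% of all genes were. The target genes Ccnd1, Tcf7l2 and Znrf3 were called in neither. Of 9 genes of the destruction complex and β-catenin, 1 was called higher and 1 lower in P28 and 2 higher and 1 lower in P4M. Ctnnb1, which encodes β-catenin, was higher in P4M (0.73, SE 0.24, adjusted p = 0.0224), and its value of 0.57 in P28 did not pass (SE 0.23, adjusted p = 0.0589).

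By position (mm10, GENCODE M21), Wnt10b (chr15:98770712-98778150, minus strand) and Wnt1 (chr15:98789857-98793837, plus strand) lie on the same chromosome, and both were called higher in both cKO groups. Wnt9a (chr11:59306928-59333552, plus strand), called higher in both, lies on the chromosome of Wnt3a (chr11:59248033-59290752, minus strand), which had 2 counts over all clones. Wnt4, the leading ligand of P4M, lies at chr4:137277489-137299726 (plus strand). In 10 of the 52 genes (Wnt5a, Wnt7b, Wnt11, Fzd5, Fzd6, Rspo3, Notum, Sfrp2, Axin2 and Lef1) an exon overlaps with an exon of a gene on the opposite strand. As the library kit does not mark strand, reads from the shared bases cannot be assigned by strand. By the study's methods, reads mapped with ambiguity were left out of the counts.

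TCF/LEF factors bind DNA at sites close to the letters CTTTGATC (reverse complement GATCAAAG), and the 250 bases before the start site are shown for the 2 genes that hold these letters in a window and for Axin2, the readout used above. RefSeq promoter windows (GRCm38.p6, 250 bases before to 50 bases after the start) were at hand for 34 of the 52 genes, 41 windows in all, and both strands were searched. The letters were found in 308 of 32851 windows of all genes (0.938%) and in 2 of the 41, 1 of the 3 windows of Wnt5b (bases shown at chr6:119449387-119449636, minus strand) and 1 of the 2 windows of Wnt11 (chr7:98834862-98835111, plus strand). The Wnt5b window lies at a start site inside the gene (chr6:119432531-119544347), and the windows at its other start sites did not hold the letters. The Axin2 window (chr11:108920099-108920348, plus strand) did not hold them. The sequences run 5′ to 3′ on the strand of the gene, in lower case, with the letters searched in capitals.
Wnt5b: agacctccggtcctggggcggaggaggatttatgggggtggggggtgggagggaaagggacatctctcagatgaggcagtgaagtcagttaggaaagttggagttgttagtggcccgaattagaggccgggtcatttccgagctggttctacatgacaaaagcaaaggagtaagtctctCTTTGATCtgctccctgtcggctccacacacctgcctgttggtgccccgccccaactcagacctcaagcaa
Wnt11: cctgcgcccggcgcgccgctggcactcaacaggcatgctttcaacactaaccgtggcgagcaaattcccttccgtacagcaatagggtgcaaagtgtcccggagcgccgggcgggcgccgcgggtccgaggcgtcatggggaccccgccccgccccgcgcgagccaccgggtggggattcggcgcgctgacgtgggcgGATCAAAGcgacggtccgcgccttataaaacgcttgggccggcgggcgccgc
Axin2: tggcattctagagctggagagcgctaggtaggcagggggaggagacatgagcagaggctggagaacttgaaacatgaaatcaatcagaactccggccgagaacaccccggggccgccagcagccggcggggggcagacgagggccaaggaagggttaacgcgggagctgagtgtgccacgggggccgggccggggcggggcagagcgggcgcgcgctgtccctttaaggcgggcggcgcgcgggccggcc
All 3 genes, Axin2 without the letters among them, were called higher in both cKO groups without overlap. Of all genes, 13% lay higher than WT without overlap in P28 and 17.8% in P4M. Wnt11 had 0 to 3 counts in each WT clone. Whether the letters bear on these levels was not tested. A match of letters is a description and not a binding site, and its absence says only that these letters are not in this window.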

How the data were processed

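RNA-seq of 14 cultured clones was analysed from the tables that the authors deposited. RNA was amplified with SMART-Seq v4, which does not mark strand, and single-end reads were, by the study's methods and the submitters' processing notes, aligned to mm10 with TopHat and Bowtie2, counted with HTSeq and compared with DESeq2, versions not given in the sources used here. The deposited raw counts cover 30503 genes. The deposited expected counts cover 55427 genes, equal the raw counts on the shared genes, and were used only for this check. The TPM values, normalized by the authors per length and depth, were used to compare levels between genes. The program that made the expected count and TPM tables was not given in the sources used here. The other deposited tables were not used.

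Groups were taken from the labels, and replicate numbers are running numbers in accession order. Genes were kept with filterByExpr, libraries scaled by TMM, and 1 quasi-likelihood model was fitted to all 14 clones in edgeR 4.0.16 (R 4.3.3) with Benjamini-Hochberg adjustment over 17358 genes and an FDR of 0.05. CPM uses TMM-scaled totals. Each SE was worked back from the edgeR test, as the absolute log2 fold change over the square root of its F statistic. No batch term could be fitted, as each submission holds 1 genotype. Simulated data of 17096 genes, with the same spread for every gene and group, were used to test the steps. Only genes with a mean above 1 CPM were changed in them. Of genes changed by 2 on the log2 scale, 82% were recovered in P28 against WT and 78% in P4M against WT. In P4M against P28, 80% of those that differed by 2 were recovered. Of genes changed by 1, 9% and 8% were recovered in the first 2. Genes that vary more between clones were not simulated, so that these shares need not hold for them. Depth was 25688946 to 52857424 counts per clone. The kit has no molecular identifiers, so that limits for a count of 0 cover counting error only.

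The 52 genes and the gene lists were chosen with earlier results of these data known. Values in every clone are given for the called genes with a group mean of at least 1 CPM (at most the 25 with the largest change), for Axin2, Lef1, Tcf7, Lrp5 and Lrp6, and for the 3 ligands and 3 Frizzled receptors of highest mean TPM. Wnt1, Wnt10a, Fzd10, Rspo1 and Wif1 were added after their values were seen. Of the other pathway genes, the 3 with the largest change among those called in each comparison are named. Alternatives were DESeq2 1.42.0, RLE size factors, library totals, other filters, a fold change minimum, only the groups compared, other TPM limits, and leaving out each clone. Gene positions came from GENCODE M21, and promoter sequences from RefSeq (GRCm38.p6).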

Additional observations from a re-analysis of the deposited data

Results flagged for a closer look

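In 7 of 84 groups of clones checked (log2(CPM + 0.5), Dixon's test at 95%), 1 clone lay apart from the rest of its group. Chance gives about 1 in 20. Wnt4 in WT clone 5 was 19.4 CPM, where the other WT clones had 0 to 0.421. Axin2 in WT clone 3 was 3.11 CPM (others 0.650 to 1.01), and Dkk2 in WT clone 2 was 1.49 CPM (others 0 to 0.0326). Among P28 clones, Rspo3 in clone 2 was 3.73 CPM (others 16.9 to 24.6), Wnt9a in clone 2 was 8.08 CPM (others 3.79 to 4.43), and Fzd8 in clone 1 was 181 CPM (others 81.1 to 94.1). Dkk3 in P4M clone 1 was 0.969 CPM, where the other P4M clones had 109 to 165.

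For 9 genes the differences from WT were unequal at the 2 cKO ages, by the edgeR test of P4M against P28. The log2 differences were 2.59 for Wnt1, 5.98 for Wnt4, 3.28 for Lgr6, 3.64 for Notum, 3.27 for Sfrp4 and 2.99 for Tcf7, and on the lower side -2.03 for Fzd2, -1.57 for Lrp6 and -3.47 for Rspo3. Their causes were not tested. Age at isolation and passage range moved together between these groups and cannot be told apart.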

How the results depend on the processing

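With DESeq2, 16 of the 52 genes were called in P4M against P28 (8 higher, 8 lower) in place of 9, and 7 of the other pathway genes in place of 4. Over all genes, the calls of this comparison were 1254, against 2607 with DESeq2 and 3051 when only the groups compared were fitted, which gave 16, 21 and 12 calls among the 52 in the 3 comparisons (P28 against WT, P4M against WT, P4M against P28) in place of 23, 21 and 9. A filter of 10 counts in every clone left 18 of the 52 genes testable, of which 11, 10 and 5 were called. By direction these were 8 higher and 3 lower, 5 higher and 5 lower, and 2 higher and 3 lower. Of all genes, 41.4%, 48.5% and 8.07% were called with this filter. Leaving out each clone in turn gave 19 to 26, 19 to 23 and 5 to 11 calls. Over all genes, 2.7% to 12.3% were called in the last comparison. The lowest number of the 52 there came without P28 clone 1 or P4M clone 4 and the highest without WT clone 3 or P28 clone 5. The counts were 23, 21 and 9 with RLE size factors and with library totals. Without a filter they were 23, 22 and 7, and when calls also had to reach 1 on the log2 scale they were 22, 21 and 9, where 4040 and 5149 of all genes passed against WT in place of 6750 and 7969.

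Of 57 gene results followed, 49 were called, and 36 of these passed in every fit without 1 clone. Lrp5 in P4M against P28, which was not called, ranged from -0.36 to 0.13 and turned in sign without P28 clone 1 (0.13) or 3 (0.04) and without P4M clone 1 (0.0043) or 3 (0.07). At a TPM of at least 0.5, 22, 33.2 and 33.5 genes were detected on average in WT, P28 and P4M, and 12.4, 18.8 and 21 at a TPM of at least 5. No paired analysis was possible because the labels give the groups no shared replicate numbers. In the simulated data 9% and 8% of changes of 1 on the log2 scale were recovered in P28 and P4M against WT, so that differences of this size can be missed.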
